A study of Mus musculus with 6 samples.

Results

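The 9 genes described here encode enzymes, and 1 helper protein, that turn arachidonic acid into prostaglandins and leukotrienes: Pla2g4a, Ptgs1, Ptgs2, Ptges, Alox5, Alox5ap, Alox15, Lta4h and Ltc4s. They were chosen by name, matched to the gene identifiers of the count tables through GENCODE M21, and make up 9 of 54838 genes. The RNA came from neutrophils that had been sorted by flow cytometry out of corneas of mice infected 24 h earlier with the Pseudomonas aeruginosa strain PAO1. The groups were Il1a-/- mice, which lack the gene of the cytokine IL-1 alpha, and WT mice, with 3 libraries each; both groups were infected, and no uninfected cornea enters the comparison. Replicates are numbered in the labels, which give neither animals nor mouse strain, age or sex; p-values therefore measure the spread between these libraries, and it is not known here whether a library pools several corneas. The comparison asks how the loss of IL-1 alpha bears on the neutrophil's messenger RNA during corneal infection.

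Eicosanoid synthesis starts when a phospholipase frees arachidonic acid from membrane phospholipids. Cyclooxygenases then open the branch to prostaglandins, which act on blood vessels, nerves and leukocytes. Together with its helper protein, arachidonate lipoxygenase 5 opens the other branch, to leukotrienes. Neutrophils are known for leukotriene B4, a lipid that attracts further neutrophils, while cysteinyl leukotrienes are better known from mast cells, eosinophils and macrophages.

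In both genotypes the prostaglandin branch was dominated by Ptgs2, the inducible cyclooxygenase, which ranked 24 among 54838 genes by mean CPM, a gene's counts scaled to a common library size. By mean CPM per kb of exon, which allows for gene length, it ranked 49 among the 54809 genes with an annotated length. The leukotriene B4 branch was expressed throughout, with Alox5ap, Alox5 and Lta4h in each of the 6 libraries, while Ltc4s and Alox15 were at or near 0. Of the 7 members that could be tested, none had an adjusted p under 0.05 for the difference of the genotypes, where 0.101% of the 11924 genes tested did (edgeR quasi-likelihood test, Benjamini-Hochberg adjustment over all of them). At an unadjusted p under 0.05 there were 2 of the 7, Ptges and Lta4h, against 5.99% of all tested genes. DESeq2 and limma-voom called 0 members as well, where DESeq2 called 0.579% of the genes to which it gave an adjusted p. The other 2 members, Alox15 and Ltc4s, fell under the filter on low counts and were not tested.

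**Figure D1:**
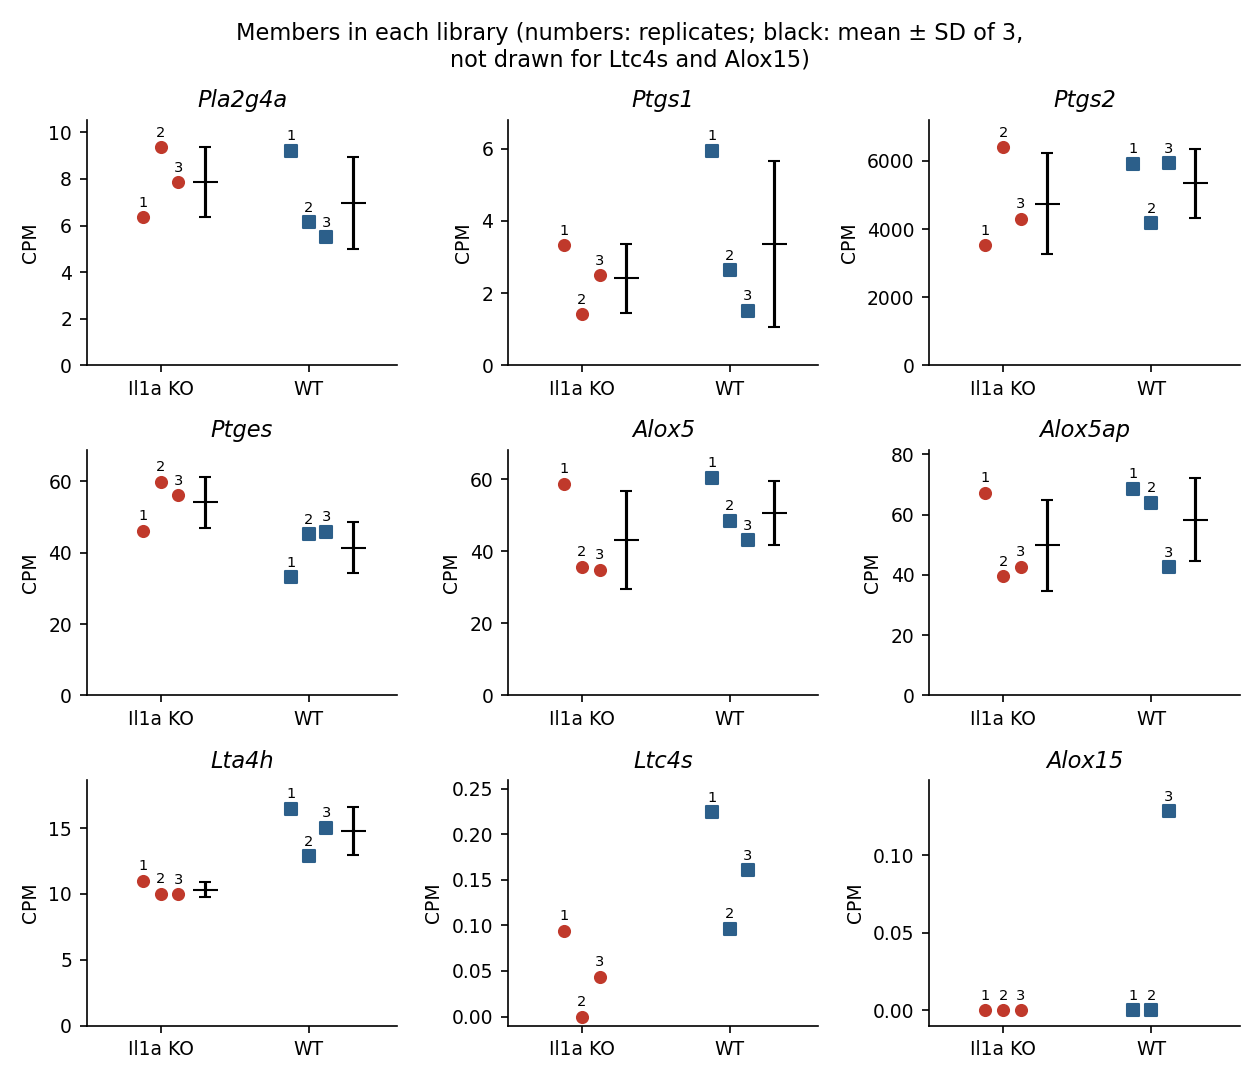
CPM (vertical axis, linear, a separate scale for each gene) of the 9 members in the 3 Il1a-/- libraries (circles) and the 3 WT libraries (squares), with replicate numbers beside the points and mean ± SD in black except for Ltc4s and Alox15. The genotypes overlap for Pla2g4a, Ptgs1, Ptgs2, Alox5 and Alox5ap, Ptges is higher and Lta4h lower in the 3 Il1a-/- libraries, and Alox15 is above 0 in 1 WT library.

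The libraries held 22855676 to 33626008 gene counts. Each carried the Il1a level of its label, with 92, 174 and 118 Il1a counts in Il1a-/- libraries and 136694, 192428 and 272865 in WT libraries. Neutrophil markers were detected for 11 of 11 genes, at a summed 25680 to 28715 CPM in Il1a-/- and 27088 to 32154 CPM in WT. Il1a-/- replicate 2 stood apart from the other 5 libraries on the first principal component (67.3, against -32.9 to 2.10), so the fold change of each tested member is also given without it.

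The 2 cyclooxygenase genes are shown by their RefSeq promoter windows, each 250 bases before to 50 bases after the annotated start in GRCm38.p6. This pair was chosen after its levels were seen. Capitals mark matches, on either strand, to 5 short motifs: the cAMP response element core ACGTCA, the C/EBP motif TTGCGCA, the E-box CACGTG, the TATA box TATAAA and the ETS core GGAAGT.
Ptgs2 promoter, chr1:150099781-150100080, plus strand: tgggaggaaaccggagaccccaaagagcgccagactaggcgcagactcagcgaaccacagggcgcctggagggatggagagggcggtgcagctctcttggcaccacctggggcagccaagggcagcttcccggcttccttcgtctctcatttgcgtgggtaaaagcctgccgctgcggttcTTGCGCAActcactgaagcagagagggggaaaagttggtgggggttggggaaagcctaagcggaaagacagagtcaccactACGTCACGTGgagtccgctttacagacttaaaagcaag
Ptgs1 promoter, chr2:36230176-36230475, plus strand: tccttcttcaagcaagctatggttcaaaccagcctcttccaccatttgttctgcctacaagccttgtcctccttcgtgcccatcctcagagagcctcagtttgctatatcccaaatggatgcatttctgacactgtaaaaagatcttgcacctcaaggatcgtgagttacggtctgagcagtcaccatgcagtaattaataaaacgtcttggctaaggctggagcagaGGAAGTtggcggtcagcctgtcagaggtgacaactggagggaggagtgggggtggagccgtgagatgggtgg
The Ptgs2 window held the C/EBP motif on both strands, as 2 overlapping matches that begin 69 and 68 bases before the start, then ACGTCA from base 13 and CACGTG from base 17 after it, which share 2 bases. The Ptgs1 window held 1 match, to the ETS core, 22 bases before its start. Among 32851 RefSeq windows of that length, 2.02% held the C/EBP motif, 7.51% ACGTCA, 7.15% CACGTG, 13.6% TATAAA and 23.8% GGAAGT. Of the other members with a window, Pla2g4a held TATAAA and GGAAGT, Ltc4s held GGAAGT, and Ptges, Alox5 and Lta4h held no match. These matches describe the letters of the windows only, and their part in the levels was not tested. RefSeq windows were found for 7 of the 9 members; Alox5ap and Alox15 are named only.

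Arachidonic acid release was represented by Pla2g4a, the cytosolic phospholipase that prefers arachidonate (ENSMUSG00000056220, GRCm38 chromosome 1, 149829618 to 149961290, minus strand). It had 6.35, 9.37 and 7.86 CPM in Il1a-/- libraries, against 9.21, 6.15 and 5.50 CPM in WT libraries. The groups overlapped, and the gene was low in all 6 libraries. Its log2 fold change, Il1a-/- over WT, was 0.18 (SE 0.26, 95% interval -0.39 to 0.75, edgeR adjusted p = 0.97). It was 0.024 without Il1a-/- replicate 2, 0.034 without WT replicate 3 and 0.097 without WT replicate 2, against 0.31 without Il1a-/- replicate 1 and 0.42 without WT replicate 1.

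Ptgs2 encodes the inducible cyclooxygenase (ENSMUSG00000032487, chromosome 1, 150100031 to 150108227, plus strand). It had 3524, 6404 and 4305 CPM in Il1a-/- libraries, against 5923, 4163 and 5940 CPM in WT libraries. The highest and the lowest of the 6 values were both in Il1a-/-, in replicates 2 and 1, and the groups overlapped. By itself Ptgs2 took up 0.371%, 0.643% and 0.431% of all gene counts in Il1a-/- libraries, against 0.615%, 0.407% and 0.549% in WT libraries. It ranked between 19 and 33 by CPM in each library. The log2 fold change was -0.17 (SE 0.21, edgeR adjusted p = 0.97), and its 95% interval ran from -0.65 to 0.31, that is from 0.638-fold to 1.24-fold. Single libraries moved it in both directions, to -0.46 without Il1a-/- replicate 2 and -0.32 without WT replicate 2, and to -0.0048 without Il1a-/- replicate 1, -0.11 without Il1a-/- replicate 3 or WT replicate 1 and -0.090 without WT replicate 3.

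Ptgs1, the gene of the constitutive cyclooxygenase best known from platelets and stomach, was scarce (ENSMUSG00000047250, chromosome 2, 36230426 to 36252272, plus strand). It had 3.33, 1.42 and 2.49 CPM in Il1a-/- libraries, against 5.95, 2.64 and 1.51 CPM in WT libraries. Replicate 1 was the highest library of each genotype and the groups overlapped. The log2 fold change was -0.48 (SE 0.50, edgeR adjusted p = 0.95), and without WT replicate 1 it was 0.20. It was -0.21 without Il1a-/- replicate 2, -0.79 without Il1a-/- replicate 1 and -0.83 without WT replicate 3. Per kb of exon, Ptgs2 exceeded Ptgs1 by 897-, 3829- and 1467-fold in Il1a-/- libraries and by 844-, 1337- and 3333-fold in WT libraries. Per the annotation Ptgs1 shares 148 exonic bases with a gene on the other strand, Gm43621, and 4.17% to 18.6% of its strand-column counts are left out of the unstranded column. Platelet markers summed to 7.76, 51.0 and 21.1 CPM in Il1a-/- and 8.23, 34.9 and 9.20 CPM in WT, with 5 of 6 detected and Gp1bb at 0. Most of that sum was Ppbp and Pf4, which encode platelet chemokines. Both were highest in Il1a-/- replicate 2, where Ptgs1 was lowest, at 38.7 and 12.1 CPM. The Ppbp groups overlapped. Pf4 was separate and higher in Il1a-/-, at 4.24, 12.1 and 9.96 CPM against 3.03, 2.90 and 1.96 CPM in WT. Its edgeR adjusted p was 0.24, and 6.12% of all tested genes were separate in that direction. Itga2b and Gp9, which encode platelet surface glycoproteins, were chosen after their values were seen. They were highest in WT replicate 1 as Ptgs1 was, at 0.561 and 0.749 CPM, on 15 and 20 counts. The part of platelets in the Ptgs1 values was not tested.

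Ptges encodes the inducible microsomal prostaglandin E synthase (ENSMUSG00000050737, chromosome 2, 30889471 to 30929863, minus strand), which completes prostaglandin E2 downstream of the cyclooxygenases. It had 46.2, 59.9 and 56.2 CPM in Il1a-/- libraries, against 33.1, 45.2 and 45.9 CPM in WT libraries. The Il1a-/- values all lay above the WT values, with the nearest pair, Il1a-/- replicate 1 and WT replicate 3, almost touching. Groups separated in that direction for 6.12% of all tested genes. Ptges averaged 54.1 ± 7.1 CPM in Il1a-/- and 41.4 ± 7.2 CPM in WT (SD, n = 3 each), a log2 fold change of 0.38 (SE 0.17, 95% interval 0.02 to 0.75) that did not pass the test (edgeR adjusted p = 0.82). It was 0.29 without Il1a-/- replicate 2 and ranged from 0.23 to 0.48 over the other settings run.

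Monocyte and macrophage markers, as a sum, were also separate between the genotypes. They summed to 371, 384 and 356 CPM in Il1a-/- libraries and 303, 300.1 and 306 CPM in WT libraries, with 14 of 14 detected and 0 of 12 tested markers called; the median log2 fold change of the 12 was 1.73. Csf1r, the receptor of the growth factor CSF1, and Adgre1, the F4/80 antigen gene, made up most of the sum. Their log2 fold changes were 0.21 and 0.22, well below that median, which scarcer markers set. Csf1r was at 206 ± 22 CPM in Il1a-/- and 178 ± 12 CPM in WT. Adgre1, whose groups overlapped, was at 79.4 ± 7.1 and 68.3 ± 13.3 CPM in Il1a-/- and WT. Of the 12, 5 were separate and higher in Il1a-/- (6.12% of all tested genes were) and 1 was separate and lower (5.48%). The lower one was Ly6c2, at 27.9, 21.8 and 29.9 CPM in Il1a-/- libraries and 32.9, 31.6 and 33.3 CPM in WT libraries. The complement gene C1qb, a marker of that list chosen after its values were seen, had 2.11, 8.29 and 4.02 CPM in Il1a-/- libraries and 0.973, 1.26 and 0.740 CPM in WT libraries. Another list, of resident peritoneal-type and alternatively activated macrophages, had 4 of 5 markers detected, with Timd4 at 0. It summed to 103, 129 and 63.5 CPM in Il1a-/- libraries and 87.1, 121 and 106 CPM in WT libraries, so the groups overlapped. Of its 4 tested markers, 0 were called, 1 was separate and higher in Il1a-/- and 0 were separate and lower. The part of these cells in the Ptges values was not tested. In a sorted population, more cells of a type and more RNA per cell cannot be told apart.

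**Figure D2:**
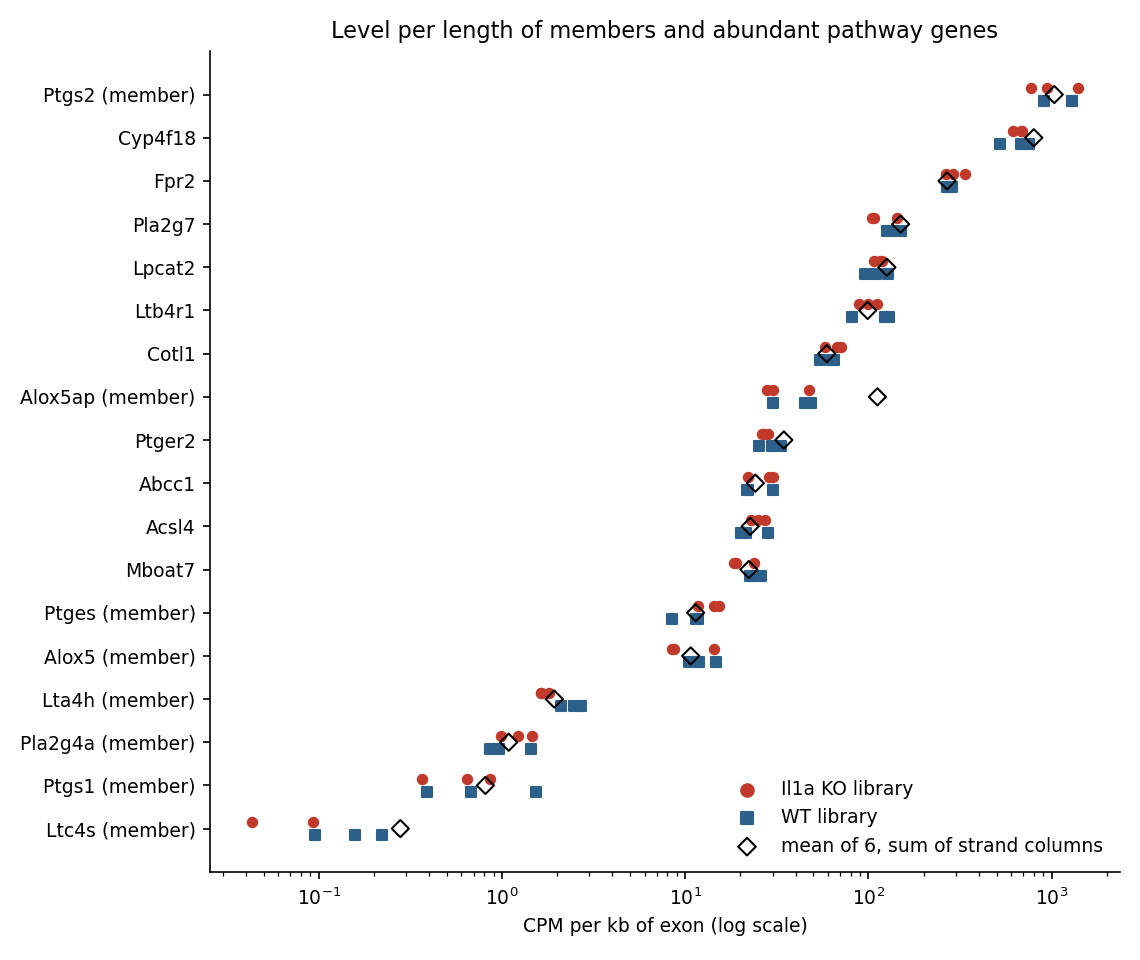
Level in CPM per kb of exon (horizontal axis, log scale) of 8 members and of the 10 other pathway genes whose mean reached 50 CPM, in Il1a-/- (circles) and WT (squares) libraries, ordered by mean; diamonds give the mean of the 6 libraries from the sum of the strand columns. Ptgs2 and Cyp4f18 lead, the diamond of Alox5ap lies to the right of its points (112 against 38.1), Ltc4s comes last, and libraries at 0 are not drawn.

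The leukotriene branch begins with Alox5, the gene of arachidonate lipoxygenase 5 (ENSMUSG00000025701, chromosome 6, 116410077 to 116461178, minus strand), which makes leukotriene A4. It had 58.8, 35.7 and 34.9 CPM in Il1a-/- libraries, against 60.4, 48.5 and 43.2 CPM in WT libraries. Replicate 1 was the highest library in each genotype and the other Il1a-/- libraries were the lowest of the 6, so the groups overlapped through Il1a-/- replicate 1 alone. The log2 fold change was -0.23 (SE 0.22, 95% interval -0.71 to 0.25, edgeR adjusted p = 0.94). It was -0.53 without Il1a-/- replicate 1 (edgeR adjusted p = 0.42), against -0.12 without Il1a-/- replicate 2 and -0.10 without Il1a-/- replicate 3 or WT replicate 1.

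Alox5ap encodes the membrane protein FLAP, which hands arachidonic acid to the lipoxygenase (ENSMUSG00000060063, chromosome 5, 149264767 to 149288153, plus strand). It had 67.2, 39.5 and 42.7 CPM in Il1a-/- libraries, against 68.6, 63.9 and 42.6 CPM in WT libraries. The libraries fell in nearly the same order as for Alox5, with both replicates 1 on top, and the groups overlapped. The log2 fold change was -0.23 (SE 0.23, 95% interval -0.74 to 0.28, edgeR adjusted p = 0.95). It was -0.51 without Il1a-/- replicate 1 and -0.41 without WT replicate 3, against -0.094 without Il1a-/- replicate 2, -0.13 without Il1a-/- replicate 3, -0.11 without WT replicate 1 and -0.16 without WT replicate 2.

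The level of Alox5ap depended on the counting column. An annotated antisense gene, Gm19719, shares 189 exonic bases with Alox5ap between 149285344 and 149287868 on chromosome 5, which is 13.3% of the exonic length of Alox5ap. The unstranded column leaves out fragments that touch both genes. It held 2139, 1280 and 977 Alox5ap counts in Il1a-/- and 1832, 1984 and 1325 in WT. In the sum of the strand columns, where such fragments count to both genes, Alox5ap had 6644, 4178 and 3161 counts in Il1a-/- and 5666, 6216 and 3995 in WT. Between 66.8% and 69.4% of that sum was therefore absent from the unstranded column. Gm19719 itself had 25, 14 and 8 unstranded counts in Il1a-/- and 10, 8 and 33 in WT. From the sum, Alox5ap was at 149 ± 41 CPM in Il1a-/- and 169 ± 42 CPM in WT (SD, n = 3 each), with a log2 fold change of -0.18 (edgeR adjusted p = 0.96). The level of Alox5ap thus depended on the column used, while its fold change kept its sign and did not pass the test with either.

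**Figure D3:**
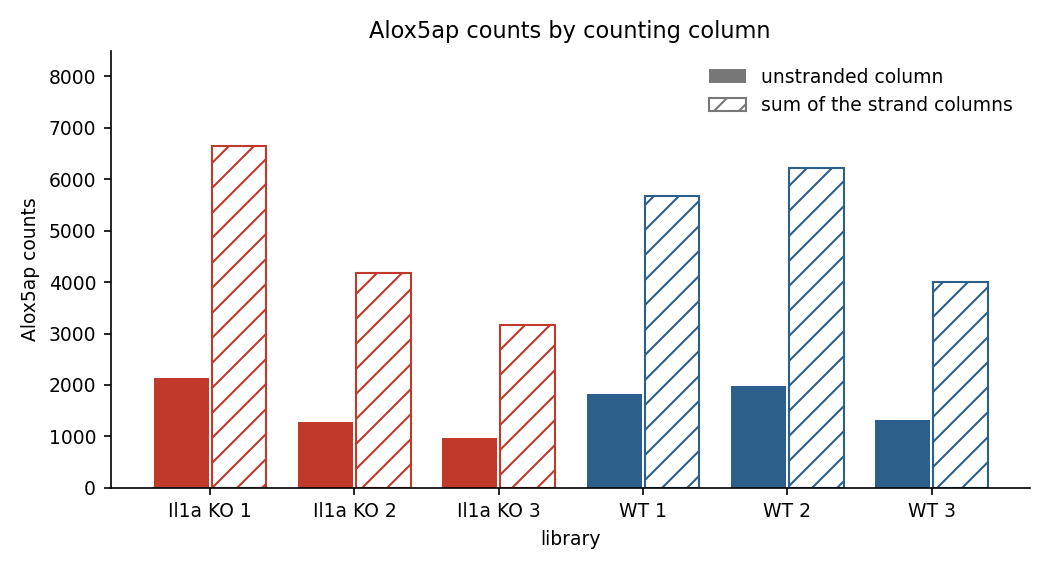
Counts of Alox5ap (vertical axis, from 0) in each library from the unstranded column (filled) and from the sum of the strand columns (hatched), Il1a-/- in red and WT in blue. The sum is between 3.02 and 3.26 times the unstranded count in every library, for example 6644 against 2139 in Il1a-/- replicate 1 and 5666 against 1832 in WT replicate 1.

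Lta4h encodes leukotriene A4 hydrolase, the enzyme that completes leukotriene B4 (ENSMUSG00000015889, chromosome 10, 93453411 to 93484875, plus strand). It had 11.0, 10.02 and 9.96 CPM in Il1a-/- libraries, against 16.5, 12.9 and 15.02 CPM in WT libraries. All Il1a-/- values lay below all WT values, and they were close together. Groups separated in that direction for 5.48% of all tested genes. Lta4h averaged 10.3 ± 0.6 CPM in Il1a-/- and 14.8 ± 1.8 CPM in WT (SD, n = 3 each). Its log2 fold change was the largest of the tested members in size, -0.52 (SE 0.17, 95% interval -0.90 to -0.13), and did not pass the test (edgeR adjusted p = 0.68). It was -0.50 without Il1a-/- replicate 2, and lay between -0.61 and -0.45 in the 15 other settings run, with adjusted p of at least 0.43.

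Ltc4s, the synthase of leukotriene C4 that opens the cysteinyl branch (ENSMUSG00000020377, chromosome 11, 50236461 to 50238616, minus strand), was near the limit of detection. It had 3, 0 and 1 counts in Il1a-/- libraries and 6, 3 and 5 in WT libraries, a ratio of 0.291 with a 95% exact counting interval of 0.0698 to 0.928 that covers counting error only. An antisense gene, Gm26542, shares 268 of its exonic bases and had 10, 8 and 0 unstranded counts in Il1a-/- and 3, 4 and 0 in WT. Fragments over the shared bases count to both genes in the strand columns, so which gene they came from is not known. In the sum of the strand columns Ltc4s had 5, 0 and 5 counts in Il1a-/- and 16, 14 and 12 in WT, a ratio of 0.244 (interval 0.109 to 0.494). Tested on that sum, where it passed the filter, the log2 fold change was -1.94 (SE 0.98, edgeR adjusted p = 0.84). The transcript was scarce in both genotypes, and its groups were separate in the strand columns. In the unstranded column they were separate only after scaling to library size. There Il1a-/- replicate 1 was at 0.0943 CPM and WT replicate 2 at 0.0966 CPM, on 3 counts each. The columns share fragments, so they are not independent comparisons. Groups were separate in that direction for 5.48% of all tested genes, a share of genes that passed the filter on the unstranded column, which Ltc4s did not. Of the mast cell and basophil list, 4 of 8 markers were detected, at a summed 3.92 to 8.74 CPM in Il1a-/- and 8.43 to 10.3 CPM in WT; Mcpt8, Fcer1a, Ms4a2 and Cma1 had no count, and nearly all of the sum was Kit, at 6.57 ± 2.43 CPM in Il1a-/- and 9.53 ± 0.97 CPM in WT. Of the eosinophil list, 7 of 8 were detected, at a summed 6.91 to 10.8 CPM in Il1a-/- and 9.23 to 13.2 CPM in WT. Siglecf, at 6.44 ± 1.88 and 7.01 ± 1.12 CPM, and Ccr3, at 2.88 ± 0.65 and 4.004 ± 1.168 CPM in Il1a-/- and WT, made up most of it, Ear1 was at 0, and the peroxidase gene Epx averaged 0.0663 CPM in Il1a-/- and 0.0554 CPM in WT. The macrophage lists are given with Ptges. The part of these cells in the Ltc4s counts was not tested.

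Alox15, whose enzyme in mice oxygenates arachidonic acid chiefly at a different carbon from the product of Alox5 (ENSMUSG00000018924, chromosome 11, 70344152 to 70352031, minus strand), had no count in the 3 Il1a-/- libraries and 0, 0 and 4 counts in the WT libraries. A count of 0 over the Il1a-/- group allows up to 0.0344 CPM at 3 counts. No difference was detectable at this depth.

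By level per kb of exon the order was Ptgs2, Alox5ap, Ptges, Alox5, Lta4h, Pla2g4a, Ptgs1, Ltc4s and Alox15. Ptgs2, at 1101 CPM per kb over the 6 libraries, was 28.9 times above Alox5ap at 38.1. From the sum of the strand columns Alox5ap was at 112 and Ptgs2 at 1033 CPM per kb, with the order kept. Ptges and Alox5, at 12.2 and 11.4 CPM per kb, could not be ordered, since each was the higher in 3 of 6 libraries. Pla2g4a and Ptgs1 also overlapped, at 1.16 and 0.744 CPM per kb, as did Ltc4s and Alox15. Between the other neighbours the ranges over the 6 libraries did not overlap. Within the leukotriene branch Alox5ap exceeded Alox5 per kb by 3.30-, 3.20- and 3.54-fold in Il1a-/- libraries and by 3.28-, 3.81- and 2.85-fold in WT libraries, or by 8.61- to 11.9-fold from the sum of the strand columns.

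**Figure D4:**
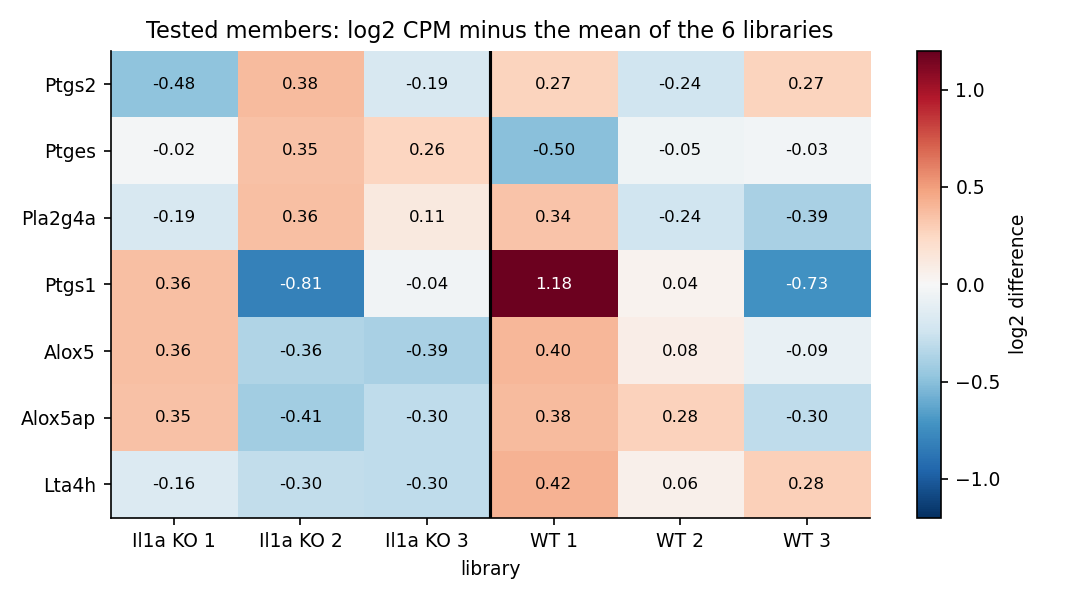
Log2 CPM of the 7 tested members in each library (columns, Il1a-/- left of WT) minus the mean of the 6 libraries. Alox5 and Alox5ap are both high in Il1a-/- replicate 1 (0.36 and 0.35) and WT replicate 1 (0.40 and 0.38), where Ptgs2 is low in Il1a-/- replicate 1 (-0.48) and high in WT replicate 1 (0.27).

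Among the 6 libraries, the highest library exceeded the lowest by 1.82-fold for Ptgs2, 1.81-fold for Ptges, 1.73-fold for Alox5, 1.74-fold for Alox5ap, 1.70-fold for Pla2g4a, 1.65-fold for Lta4h and 4.20-fold for Ptgs1. Relative to its own mean on the log2 scale, Ptgs1 was at 0.36 in Il1a-/- replicate 1 and 1.18 in WT replicate 1, the libraries in which Alox5 and Alox5ap were also high. Replicate 1 was the highest library of each genotype for Lta4h too, at -0.16 in Il1a-/- replicate 1, where the other Il1a-/- libraries were at -0.30, and 0.42 in WT replicate 1. By Pearson correlation of log2 CPM over the 6 libraries, the tested genes most like Ptgs2 were Postn (r = 0.985, with a mean of only 0.451 CPM) and Katna1 (r = 0.985), and those most like Alox5ap were Cox19 (r = 0.997) and Ctdnep1 (r = 0.994). With 6 libraries, 101 genes reached 0.95 with Alox5ap and 17 with Ptgs2, so these names are a description.

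Beyond the members, 63 genes of the same pathway were looked up, of which 32 passed the filter. In edgeR 0 of the 32 were called and 1 had an unadjusted p under 0.05, against 5.99% of all tested genes; 16 had a log2 fold change above 0, and the median was -0.01, against 0.00 for all tested genes and -0.23 for the 7 tested members. Groups were separate for 2 of the 32, both lower in Il1a-/-, which is close to the 5.48% of all tested genes that were separate in that direction. DESeq2 and limma-voom also called 0.

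Genes that release and remodel phospholipids held 9 tested members of 19. Lpcat2, which makes platelet-activating factor, was at 386 ± 21 CPM in Il1a-/- and 377 ± 53 CPM in WT, and Pla2g7, the secreted hydrolase of that lipid, at 344 ± 61 and 396 ± 38 CPM in Il1a-/- and WT. Acsl4, which activates arachidonic acid, was at 135 ± 11 CPM in Il1a-/- and 126 ± 23 CPM in WT. Mboat7, which returns arachidonic acid to phosphatidylinositol, was at 170.4 ± 24.4 CPM in Il1a-/- and 199.5 ± 14.6 CPM in WT. All of these but Acsl4 share exonic bases with a gene on the other strand, so that part of their fragments is left out of the unstranded column. A cluster of cytosolic phospholipases lies 8.99 to 9.26 Mb from Il1a on chromosome 2. None of its 4 genes passed the filter: Pla2g4b and Pla2g4d were at 0, Pla2g4e had 0, 18 and 13 counts in Il1a-/- and 0 in each WT library, and Pla2g4f had 0, 38 and 4 counts in Il1a-/- and 9, 0 and 1 in WT.

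Among prostanoid synthases other than Ptges, 5 of 9 were tested, and those named here and among the low receptors were chosen after their values were seen. Ptges3, which also serves as the chaperone partner p23, was at 15.5 ± 1.2 CPM per kb in Il1a-/- and 15.9 ± 2.0 CPM per kb in WT, above Ptges in 5 of 6 libraries; Ptges was at 13.8 ± 1.8 and 10.5 ± 1.8 CPM per kb in Il1a-/- and WT. Ptges2 was at 4.29 ± 0.31 CPM per kb in Il1a-/- and 4.41 ± 0.90 CPM per kb in WT. Tbxas1, the thromboxane synthase gene, was at 0.234 ± 0.056 and 0.254 ± 0.039 CPM per kb in Il1a-/- and WT. The prostaglandin D and prostacyclin synthases Hpgds, Ptgds and Ptgis fell under the filter. Hpgd, which inactivates prostaglandin E2, had no count in any library.

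Of the prostanoid receptors, 3 of 9 were tested. Ptger1 fell under the filter with 1 to 12 unstranded counts per library. From the sum of the strand columns it was at 21.9 ± 4.5 CPM in Il1a-/- and 20.7 ± 7.1 CPM in WT, so its level is undetermined. Ptger2, an E-type receptor that raises cAMP, was at 141 ± 6 CPM in Il1a-/- and 153 ± 22 CPM in WT, Ptger4, which also raises cAMP, at 16.5 ± 4.6 and 14.3 ± 4.4 CPM, and the prostacyclin receptor gene Ptgir at 7.77 ± 2.34 and 7.49 ± 0.39 CPM, in Il1a-/- and WT each time (SD, n = 3 each). Ptger2 shares exonic bases with Gm17173 and Gm49364 on the other strand. Between 21.6% and 24.0% of its strand-column counts are left out of the unstranded column.

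On the leukotriene side, Cyp4f18, the mouse neutrophil cytochrome that hydroxylates leukotriene B4, was the most abundant pathway gene after Ptgs2 per kb, at 660.2 ± 39.2 CPM per kb in Il1a-/- and 653 ± 117 CPM per kb in WT; it shares exonic bases with Zfp961 on the other strand. Ltb4r1, the high-affinity receptor of leukotriene B4, was at 139 ± 16 CPM in Il1a-/- and 155 ± 37 CPM in WT. Fpr2, a receptor of formyl peptides and lipid mediators, was at 384 ± 46 and 357 ± 11 CPM, Abcc1, an exporter of leukotriene C4, at 405 ± 64 and 372 ± 73 CPM, and Cotl1, which binds the lipoxygenase of Alox5, at 104 ± 11 and 97.3 ± 9.5 CPM, in Il1a-/- and WT each time (SD, n = 3 each). None of these was called (edgeR adjusted p = 0.96 for Ltb4r1 and 0.99 for Cyp4f18).

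The gene with the smallest p of the pathway, chosen after its values were seen, was Ltb4r2, the low-affinity receptor of leukotriene B4. It had 1.04, 0.740 and 1.22 CPM in Il1a-/- libraries, against 3.18, 3.25 and 1.74 CPM in WT libraries. The groups did not overlap, on 24 to 33 counts per library in Il1a-/- and 54 to 101 in WT. The log2 fold change was -1.45 (SE 0.40, 95% interval -2.34 to -0.55), which did not pass over all genes (edgeR adjusted p = 0.54), nor in any of the other settings run (adjusted p from 0.17 to 1.00).

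**Figure D5:**
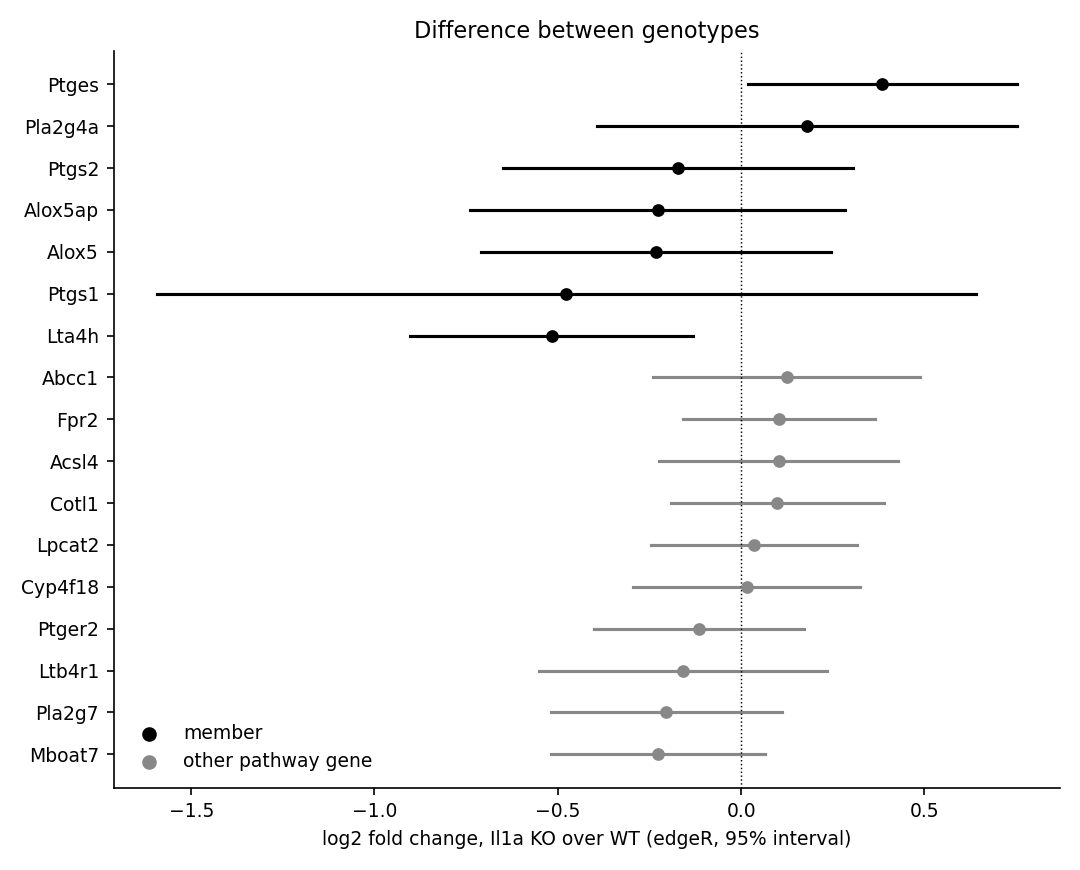
Log2 fold change, Il1a-/- over WT, with 95% interval from edgeR (horizontal axis) for the 7 tested members (black) and the 10 other pathway genes whose mean reached 50 CPM (grey). The unadjusted intervals of Ptges (0.02 to 0.75) and Lta4h (-0.90 to -0.13) leave out 0, those of the other genes include it, and no gene passed the adjusted threshold.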

How the data were processed

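For each of the 6 libraries the authors deposited raw counts per gene, as whole numbers: 1 column counted without regard to strand, and 1 for each read strand. The kit was SMART-Seq v4, per the labels' protocols; its reads carry no strand. Tools named in the submitters' processing notes are STAR 2.7.8a, Trimmomatic 0.39 and FastQC 0.11.9, with GRCm38 and mm10 as builds. Which annotation and filters were used is not stated there.

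GENCODE M21 (GRCm38) gave symbols, positions and exon lengths for 54809 of 54838 genes. The unstranded counts were filtered by edgeR's default rule (11924 genes kept), scaled by TMM and tested, Il1a-/- over WT, by the robust quasi-likelihood test of edgeR 4.0.16 in R 4.3.3 (limma 3.58.1 for voom), with p adjusted by Benjamini-Hochberg over all tested genes at 0.05. CPM use the TMM-adjusted library size, log2 CPM a prior count of 3, and CPM per kb the union of a gene's exons. The procedure was tested on simulated counts. Sequences are RefSeq's for GRCm38.p6.

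The members and lists were chosen with earlier results of these data known. Named by rule are all members, and other pathway genes that reach a mean of 50 CPM, are called, or are tested within 15 Mb of Il1a (0 genes). Ptges2, Ptges3, Tbxas1, Hpgds, Ptgds, Ptgis, Hpgd, Ptger1, Ptger4, Ptgir, Ltb4r2 and the 4 Pla2g4 genes near Il1a fall outside it and were chosen after their values were seen. Other settings were DESeq2 size factors, upper quartile, library size alone, no filter, 5 CPM in 3 libraries, DESeq2 1.42.0, limma-voom, a replicate block, the sum of the strand columns, each library left out, and the longest transcript as length. Levels per kb from the strand columns were added once the data had been seen.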

Additional observations from a re-analysis of the deposited data

How the results depend on the processing

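Across all genes, 12 were called, against 185 without a filter, 21 with a filter at 5 CPM, 69 by DESeq2 and 20 with a replicate block, and 7 to 24 with 1 library left out (7 without WT replicate 1 or WT replicate 2, 24 without Il1a-/- replicate 1). No member, and no other gene of the pathway, was called in any of the 15 settings. The replicate numbers share no named litter or day. Deviations of same-numbered libraries correlated at 0.14, 0.06 and 0.00, and those of differently numbered libraries at -0.19 to 0.14. The block changed no call among these genes. Of 104 values for members, 103 kept their sign. With 1 library left out, log2 fold changes ranged from -0.83 to 0.20 for Ptgs1, from -0.0088 to 0.26 for Acsl4, from -0.076 to 0.14 for Lpcat2 and from -0.14 to 0.13 for Cyp4f18; the cause was not tested. Level per kb rose for each member with the longest transcript as length, which is shorter than the exon union. The rise exceeded the larger of the genotype SDs for Pla2g4a (2.14) and Lta4h (3.89) only. With the strand columns the level rose by more than that SD for Alox5ap (112) and Ltc4s (0.279). Depth limits Ltc4s and Alox15, which rest on 18 and 4 counts over all libraries.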
